A study of Drosophila melanogaster with 10 samples.

Results

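The 10 genes described here are the proneural and sensory organ precursor genes of the fly: achaete (ac), scute (sc), lethal of scute (l(1)sc), asense (ase), senseless (sens), scabrous (sca), extra macrochaetae (emc), daughterless (da), neuralized (neur) and phyllopod (phyl). They were chosen by gene symbol from the 13041 genes of the deposited table, and each symbol matched 1 row. RNA was sequenced from wing imaginal discs of yw Drosophila larvae, a stock named for its mutations in the yellow and white genes, in the third larval instar (L3). Discs were dissected 6 h, 15 h, 25 h, 35 h and 48 h past the L2/L3 molt, the last of these from wandering larvae. Each time has 2 libraries, A and B, so there are 10 libraries in all, and every time shares the yw genotype. The labels name no treatment, sex or number of discs per library. They do not say that A and B came from separate collections, so the p-values measure the spread between these libraries, which may be technical.

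The wing disc is the larval epithelium that forms the adult wing and the back of the thorax, and it makes the sensory bristles of both. Proneural genes encode basic helix-loop-helix (bHLH) transcription factors that give groups of cells the competence to become a sensory organ precursor. Ac and Sc bind DNA as dimers with Da, and Emc, a helix-loop-helix protein that lacks the basic region, sequesters them. Within a proneural cluster Notch signalling restricts high proneural activity to single cells, and those cells then express sens, ase, neur and phyl.

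Reads per library, summed over the genes of the deposited table, ranged from 16814685 at 35 h to 38003104 at 48 h. Values are normalised read counts, termed signal, in which 1 read was worth between 0.596 and 1.40 units depending on the library. Markers of the labelled tissue were present: all 15 wing disc markers were above 0 in every library, and 13 of 15 were higher at 48 h than at 6 h. The 15 h libraries stood apart, with a Spearman correlation between A and B of 0.870 across genes, against 0.976 to 0.994 at the other times. The 6 gut enzyme markers in the table summed to a signal of 339557 in 15 h A and 5591 in 15 h B. The summed signal of 7 fat body markers was 2773936 and 1116165 at 25 h and between 38612 and 656315 in the other libraries. Because these are bulk samples, fewer cells of a type and less RNA per cell cannot be told apart.

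Across the 5 times, ac, sc, sca, sens, emc and da changed, by a limma F test with Benjamini-Hochberg adjustment over all genes tested. These are 6 of the 9 members that passed the filter on low signal, beside 38.4% of all 10453 genes tested. The filter kept genes that reached a signal of 10 in 2 or more libraries. l(1)sc failed it, so the count describes the 9 tested and not the whole list. The rise differed in size and in shape between the members, as the plot of every library shows.

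**Figure D1:**
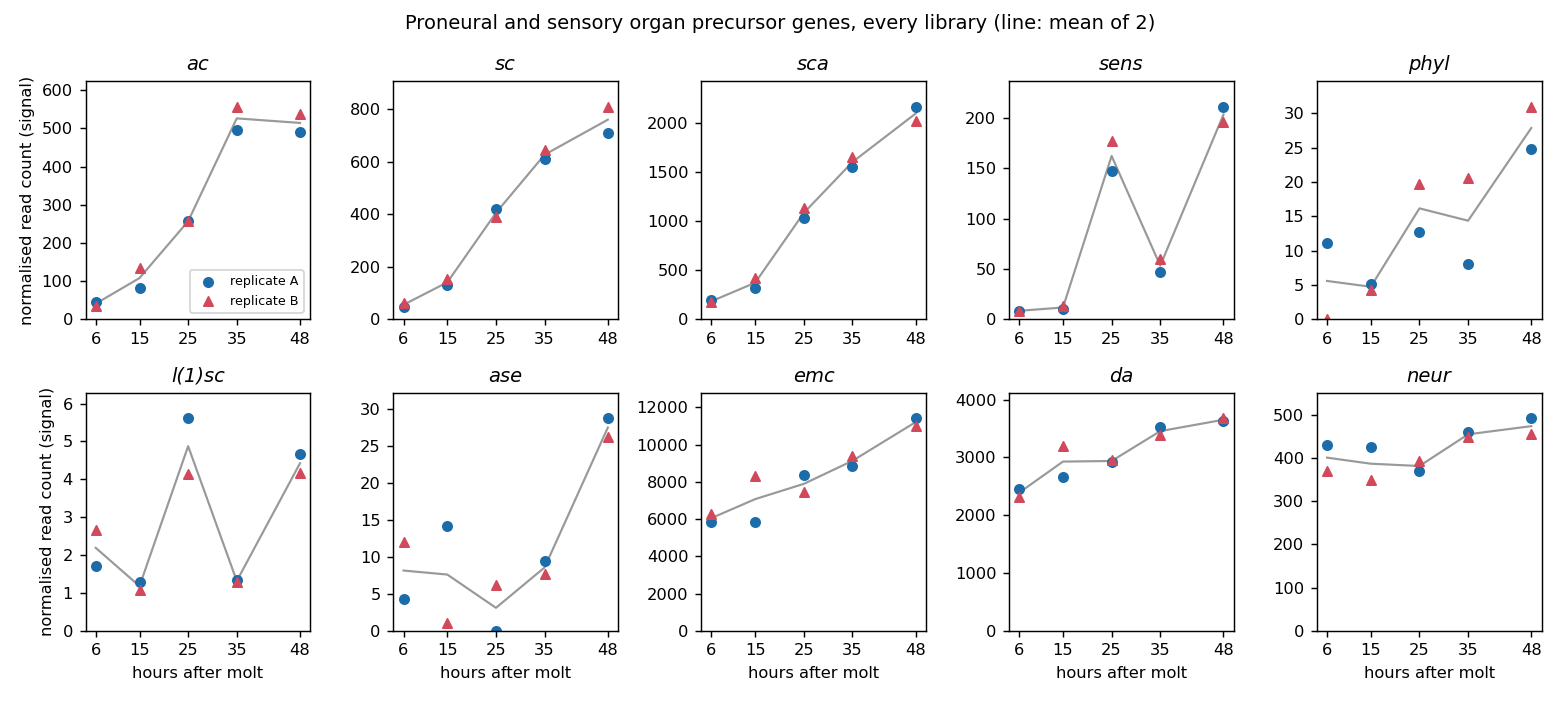
Normalised read count (signal) of the 10 genes against hours after the molt; circles are replicate A, triangles replicate B and the line joins the means of the 2 libraries. ac, sc and sca climb at each step up to 35 h, sens is high at 25 h and 48 h and lower at 35 h, and neur stays between 349.3 and 492.7.

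The proneural genes ac and sc rose over the instar, each more than 10-fold in the ratio of mean signals. sc (FBgn0004170; X, 396060 to 397497, plus strand) had a signal of 47.1 and 62.7 at 6 h, 128.4 and 152.6 at 15 h, 421.1 and 390.0 at 25 h, 610.7 and 643.7 at 35 h, then 710.6 and 810.9 at 48 h. No library of one time overlapped those of another, so each time was higher than the one before. The mean at 48 h was 760.7 ± 70.9, against 54.9 ± 11.0 at 6 h (SD, n = 2 each), a ratio of 13.9. On the scale of log2(signal + 1) the difference was 3.78 (SE 0.19, limma adjusted p = 0.000201).

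ac (FBgn0000022; X, 370031 to 370947, plus strand) had a signal of 46.2 and 34.7 at 6 h, 82.2 and 133.3 at 15 h, 256.9 and 256.5 at 25 h, 495.2 and 557.2 at 35 h, then 490.0 and 538.6 at 48 h. Its libraries were apart at each step up to 35 h, and those of 48 h and 35 h overlapped. At 48 h it was 12.7-fold its 6 h mean, a log2 difference of 3.65 (SE 0.27, adjusted p = 0.000283). From 35 h to 48 h the log2 difference of ac was -0.03 (SE 0.27), beside 0.28 (SE 0.19) for sc, with adjusted p of 1 and 0.673. In the same library, sc had between 0.65 and 1.15 times the signal of ac per kb of exon, and both extremes were at 6 h, where ac rested on 54 and 26 reads.

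sca (FBgn0003326; 2R, 12780541 to 12802010, plus strand) encodes a secreted fibrinogen-related protein of proneural clusters that acts in the spacing of precursors. Its signal was 190.9 and 173.5 at 6 h, 319.8 and 422.4 at 15 h, 1030.4 and 1134.8 at 25 h, 1554.2 and 1648.5 at 35 h, then 2167.3 and 2024.5 at 48 h. The libraries of every time lay above those of the time before. At 48 h the signal was 11.5-fold that at 6 h, a log2 difference of 3.52 (SE 0.15, adjusted p = 0.000122). Per kb, sca had between 0.926 and 1.54 times the signal of sc in the same library, with the highest ratio in 6 h A.

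In the first step, 15 h against 6 h, 3 of the 9 members tested were higher and 0 were lower, beside 1.32% and 2.90% of all genes. The 3 were ac (log2 difference 1.36, SE 0.27, adjusted p = 0.0414), sc (1.35, SE 0.19, adjusted p = 0.0239) and sca (1.01, SE 0.15, adjusted p = 0.0267). In all 3 both 15 h libraries lay above both 6 h libraries. These calls depended on the tool and the libraries: edgeR called 0 members in this step and DESeq2 called 3, and the limma count was 0 when either library of 6 h, 25 h, 35 h or 48 h was left out, 5 without 15 h A and 3 without 15 h B. The wing disc markers summed to 57526 in 15 h B and 37295 in 15 h A, and ac, sc and sca were each higher in 15 h B than in 15 h A; the part of this in the result was not tested.

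sens followed another course. It encodes a zinc finger transcription factor of sensory organ precursors and of the wing margin, and it lies on 3L at 13396228 to 13401125, minus strand (FBgn0002573). Its signal was 8.6 and 8.0 at 6 h, 10.3 and 12.9 at 15 h, 147.4 and 176.9 at 25 h, 47.0 and 59.3 at 35 h, then 211.2 and 195.4 at 48 h. These values came from 10 and 6 reads at 6 h, 8 and 12 at 15 h, 105 and 171 at 25 h, 35 and 46 at 35 h, then 316 and 328 at 48 h. No time overlapped another in its libraries, and both 35 h libraries lay below both 25 h and both 48 h libraries.

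Between 15 h and 25 h sens rose 14.0-fold, to a mean of 162.1 ± 20.9 at 25 h, against 11.6 ± 1.9 at 15 h (SD, n = 2 each). The log2 difference was 3.70 (SE 0.28, adjusted p = 0.0202), and sca also rose in this step, by 1.55 (SE 0.15, adjusted p = 0.0263). These 2 were higher and 0 members were lower, beside 0.124% and 0.00957% of all genes, and no member had an unadjusted p under 0.05 for a lower value in limma, edgeR or DESeq2. sc and ac differed by 1.53 and 1.29, with adjusted p of 0.0611 and 0.148. The direction of sens held in every one of 21 alternative settings, between 3.41 and 3.85, and its call held in 12 of them; that of sca held in 6. Leaving out either library of 6 h, 25 h or 48 h took the count of members called from 2 to 0, and 5 were called without 15 h B. Over the longer span, 25 h against 6 h, ac, sc, sca and sens were higher and 0 members lower, beside 8.93% and 8.01% of all genes, with log2 differences of 2.65, 2.88, 2.56 and 4.13, and all 4 were called in each of the 22 alternatives.

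At 35 h sens fell to a mean of 53.2 ± 8.7, against 162.1 ± 20.9 at 25 h (SD, n = 2 each), a log2 difference of -1.59 (SE 0.28, adjusted p = 0.036). It was the 1 member lower in this step, and 0 were higher, beside 3.09% lower and 0.851% higher among all genes. In the same step ac, sc and sca differed by 1.03, 0.63 and 0.57, with adjusted p of 0.088, 0.128 and 0.0958. These 3 had an unadjusted p under 0.05 in limma; edgeR called 0 members higher and DESeq2 called 3. The sign of the sens change was the same in 22 alternatives, between -1.76 and -0.95, and the call held in 10. It was lost in 12, among them the fits that left out either library of 6 h, 25 h, 35 h or 48 h and those with quantile normalization (adjusted p = 0.342), with a common median (adjusted p = 0.0912) and without the filter (adjusted p = 0.0547).

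At 48 h sens had a mean signal of 203.3 ± 11.2, against 53.2 ± 8.7 at 35 h, a ratio of 3.83 and a log2 difference of 1.92 (SE 0.28), and the adjusted p was 0.0512. No member was called in this step, beside 0.153% higher and 0.239% lower among all genes. At an unadjusted p under 0.05 limma gave 2 members higher, sens and sca, and 0 lower; edgeR called 0 members and DESeq2 called 1 higher. The sens call was made in 7 of 23 alternatives, among them the fit without the 15 h libraries (adjusted p = 0.0115). At 48 h sens stood 24.5-fold above 6 h, a log2 difference of 4.46 (SE 0.28, adjusted p = 0.00022) that was called in all 23 alternatives.

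**Figure D2:**
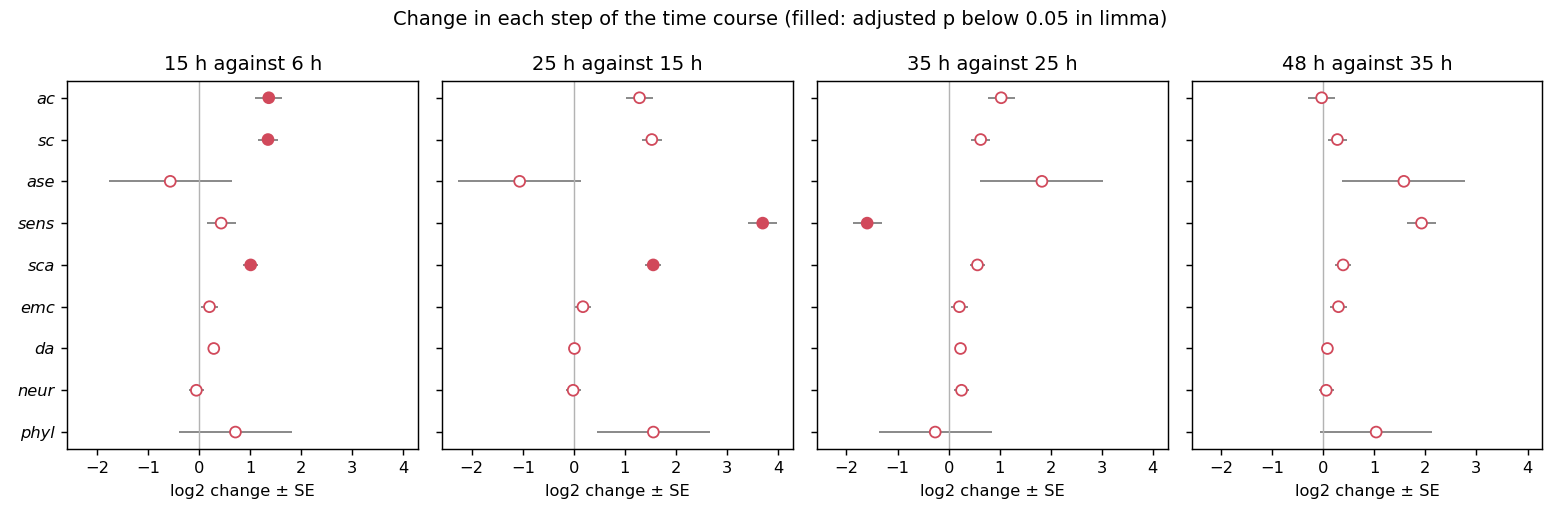
Difference in log2(signal + 1) between neighbouring times, later minus earlier, for the 9 genes tested, with standard errors; filled points have an adjusted p below 0.05 in limma. ac, sc and sca are filled at 15 h against 6 h, sens and sca at 25 h against 15 h, and sens alone at 35 h against 25 h, where it is the filled point left of 0.

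A dip was measured as the log2 mean of a time minus the mean of the log2 means of the times on either side. For sens this was -1.63 at 15 h (adjusted p = 0.194), 2.65 at 25 h (adjusted p = 0.0451) and -1.76 at 35 h (adjusted p = 0.0916). Members called lower numbered 0 at 15 h, at 25 h and at 35 h, beside 0.00%, 0.00957% and 0.0287% of all genes, and 1 member, sens, was called higher at 25 h, beside 0.0287%. At an unadjusted p under 0.05, limma and edgeR each gave 1 member lower at 15 h and 1 at 35 h, which in limma was sens both times; edgeR called 0 and DESeq2 called 1 at each of these times, and none of the 3 tools gave a member lower at 25 h at that level. The high value of sens at 25 h was called in 9 of 21 alternatives. The low value of sens at 35 h was called in 6 of 22 alternatives, with the 15 h libraries left out among them (adjusted p = 0.0182). Of all genes tested, 12.2% had both 35 h libraries below both 25 h and both 48 h libraries. Among the 9 members tested this held for 1, sens. It also held for l(1)sc, which failed the filter and had 1 read in each 35 h library. Of the 323 genes lower at 35 h than at 25 h, 17 were higher again at 48 h by more than 1 on the log2 scale, and 5 were called in both steps.

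Set against sc in the same library, sens was scarce at the early times and at 35 h. Per kb of exon, sens had 0.107 and 0.0749 times the signal of sc at 6 h, 0.0469 and 0.0496 at 15 h, 0.205 and 0.266 at 25 h, 0.0451 and 0.0541 at 35 h, then 0.174 and 0.141 at 48 h. The 35 h ratios were thus close to those at 15 h, although sc itself was higher at 35 h. With 2 libraries against 2, an exact two-sided permutation test of such a ratio cannot go below p = 0.333, and none was run.

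sens is also a gene of the salivary gland, where it acts in the embryo with Sage, a bHLH factor of that gland. A list of 9 salivary gland genes was added after the values of sens were seen, and sage was singled out from it after its own values were seen. sage had a signal of 58.2 and 48.0 at 6 h, 43.7 and 39.8 at 15 h, 578.3 and 589.6 at 25 h, 177.2 and 247.7 at 35 h, then 82.2 and 76.3 at 48 h. It rose at 25 h against 15 h by 3.78 (adjusted p = 0.0108) and fell at 35 h against 25 h by 1.47 (adjusted p = 0.0293) on the log2 scale, beside 3.70 and -1.59 for sens. Per kb, the signal of sens was 0.137 to 0.189 times that of sage in the 6 libraries of 15 h, 25 h and 35 h, 0.0857 and 0.0971 times at 6 h, and 1.50 and 1.49 times at 48 h. The jump at 25 h and the fall at 35 h of sens therefore moved with sage, and the high sens at 48 h did not. The courses of the other genes of the list were mixed. fkh, a forkhead factor of the gland, had a signal of 226.9 and 463.1 at 6 h, 1089.1 and 86.0 at 15 h, 428.1 and 224.5 at 25 h, 52.3 and 63.2 at 35 h, then 24.1 and 9.5 at 48 h. CrebA, a factor of secretory cells that is not limited to the gland, lay between 1623 and 3271 in the 10 libraries. The 6 glue protein genes summed to between 1.71 and 12.0 in the libraries of 6 h and 15 h, 181.1 and 1916 at 25 h, 1535 and 7733 at 35 h, then 234.6 and 270.5 at 48 h. Of these 8 genes, fkh and CrebA were higher in both 25 h than in both 35 h libraries. CrebA was also higher in both 48 h than in both 35 h libraries. The summed glue genes were lowest at 6 h and 15 h. The summed signal of the 9 genes was 3373 and 5227 at 25 h, 3590 and 10041 at 35 h, then 3612 and 2782 at 48 h, and Sgs1 was at 0 in 25 h A. Whether gland tissue has a part in the sens values was not tested.

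Other tissues also moved at these times. The fat body markers given above took 8.33% and 4.27% of the reads in the deposited table at 25 h. They took 0.348% and 0.415% at 35 h, then 0.171% and 0.304% at 48 h. These shares were thus high at 25 h with sens and low at 48 h when sens was highest. The summed signal of 9 neuron markers was 2913 and 1813 at 25 h, 1019 and 1153 at 35 h, then 939.2 and 942.5 at 48 h, and 1 of them, Rdl, was at 0 in all 4 libraries of 35 h and 48 h. The higher sum at 25 h than at 35 h came from Syt1, a synaptic vesicle gene, with 2130.9 and 1002.4 at 25 h, 107.4 and 138.0 at 35 h, then 82.2 and 122.7 at 48 h. The other 8 neuron markers summed to 781.9 and 811.0 at 25 h, 911.3 and 1015 at 35 h, then 857.0 and 819.8 at 48 h. The 8 neuroblast markers summed to between 1647 and 3040 over all libraries, with tll at 0 in 6 of the 10. The part of these tissues in the sens values was not tested.

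**Figure D3:**
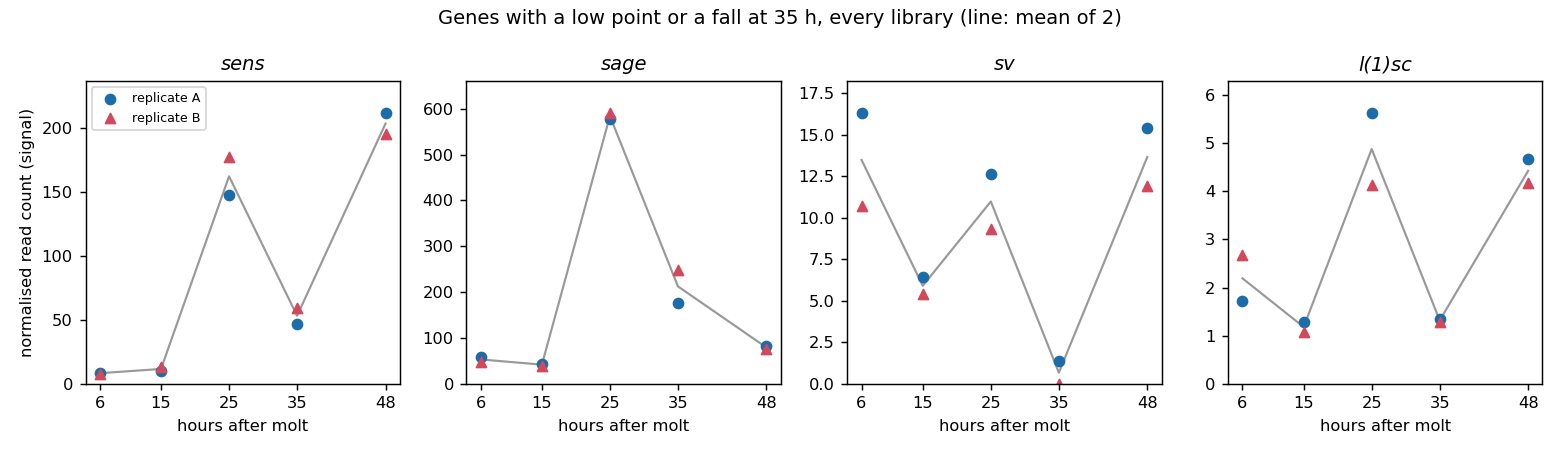
Signal of sens, the salivary gland gene sage, the shaft cell gene sv and l(1)sc in every library against hours after the molt; circles are replicate A, triangles replicate B and lines join the means. sens and sage share a high point at 25 h and differ at 48 h, where sens had 211.2 and 195.4 and sage 82.2 and 76.3.

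The partners and the inhibitor of the proneural proteins were abundant and changed less. da (FBgn0267821; 2L, 10388105 to 10393228, plus strand), the common bHLH partner, had a signal of 2457 and 2322 at 6 h, 2655 and 3200 at 15 h, 2924 and 2950 at 25 h, 3519 and 3389 at 35 h, then 3624 and 3678 at 48 h. Both libraries of 35 h and of 48 h lay above all those of the earlier times. The ratio of 48 h to 6 h was 1.53, a log2 difference of 0.61 (SE 0.10, adjusted p = 0.0035).

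emc (FBgn0000575; 3L, 749400 to 753492, plus strand), the inhibitor, had a signal of 5825 and 6281 at 6 h, 5841 and 8302 at 15 h, 8347 and 7436 at 25 h, 8869 and 9389 at 35 h, then 11419 and 10998 at 48 h. The 15 h libraries spanned the range between 6 h and 25 h, and the libraries of 48 h were above all others. The ratio of 48 h to 6 h was 1.85, a log2 difference of 0.89 (SE 0.16, adjusted p = 0.00513). Per kb, emc had 3.87 to 5.54 times the signal of da in the same library, highest in the 2 libraries of 48 h.

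Against 6 h, emc was first called at 35 h (log2 0.59, SE 0.16, adjusted p = 0.0243), and so was da (0.53, SE 0.10, adjusted p = 0.00742). With these, 6 members were higher and 0 lower at 35 h against 6 h, beside 21.2% and 24.4% of all genes, and the same 6 were higher and 0 lower at 48 h against 6 h, beside 22.3% and 26.8%. Higher genes made up 45.5% of all calls at 48 h against 6 h, 66.5% with quantile normalization and 58.8% with a common median. No member had an unadjusted p under 0.05 for a lower value in any comparison with 6 h in limma, edgeR or DESeq2, and none was called lower by any of them. The 6 calls at 48 h held in each of 23 alternatives. At 35 h the calls of ac, sc, sca and sens held in all 23, that of emc in 18 and that of da in 21.

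neur, phyl and ase act in or after precursor selection, and none of them passed the test at 48 h against 6 h. neur (FBgn0002932; 3R, 9020348 to 9039471, minus strand) encodes a ubiquitin ligase that promotes endocytosis of the Notch ligand Delta. Its signal was 431.6 and 371.0 at 6 h, 425.1 and 349.3 at 15 h, 370.6 and 393.1 at 25 h, 460.4 and 450.2 at 35 h, then 492.7 and 455.8 at 48 h. Neither 48 h library was below a 6 h library, and the log2 difference was 0.24 (SE 0.15, adjusted p = 0.208); it was called higher with quantile normalization and with a common median, 2 of the 23 alternatives. In the annotation, 1673 of its 4309 exon bases lie opposite an antisense RNA, asRNA:CR31429, so its signal is uncertain if the counting did not use strand, a setting not given in the sources used here.

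phyl (FBgn0013725; 2R, 14427336 to 14432337, minus strand) encodes an adaptor that brings the repressor Tramtrack to its ubiquitin ligase. Its signal was 11.1 and 0 at 6 h, 5.1 and 4.3 at 15 h, 12.6 and 19.7 at 25 h, 8.1 and 20.6 at 35 h, then 24.7 and 31.0 at 48 h. The reads behind the 48 h values were 37 and 52, against 13 and 0 at 6 h. Both 48 h libraries were above every other library. The log2 difference of 48 h to 6 h was 3.04 (SE 1.10, adjusted p = 0.056), and it was called in 5 of 23 alternatives, 1 of which left out 6 h A, the library with the 13 reads.

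ase (FBgn0000137; X, 460747 to 463176, plus strand), a bHLH gene of the achaete-scute complex expressed in precursors and neuroblasts, had a signal of 4.3 and 12.0 at 6 h, 14.1 and 1.1 at 15 h, 0 and 6.2 at 25 h, 9.4 and 7.7 at 35 h, then 28.7 and 26.2 at 48 h. The 48 h libraries, with 43 and 44 reads, were again above all others. The log2 difference of 48 h to 6 h was 1.78 (SE 1.21, adjusted p = 0.25), and the call was made in 2 of 23 alternatives.

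l(1)sc (FBgn0002561; X, 409721 to 410817, plus strand), a further proneural gene of the complex that is best known in the embryonic nervous system, was close to the limit of detection. Its reads numbered 2 and 2 at 6 h, 1 and 1 at 15 h, 4 and 4 at 25 h, 1 and 1 at 35 h, then 7 and 7 at 48 h. The exact 95% Poisson interval was 3.45 to 15.8 for the 8 reads of 25 h, 0.24 to 7.22 for the 2 reads of 35 h and 7.65 to 23.5 for the 14 reads of 48 h, for counting error only. The signal at 35 h was 1.3 and 1.3, beside 5.6 and 4.1 at 25 h and 4.7 and 4.2 at 48 h. The intervals of 25 h and 35 h overlap, but they ignore depth and are no test of a difference. In the limma fit without a filter, 35 h against 25 h had an unadjusted p of 0.00883 and an adjusted p of 0.123. For 48 h against 35 h these were 0.013 and 0.276, so neither step was called.

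The order of onset was read in 2 ways. By the first time called above 6 h, ac, sc and sca came at 15 h, sens at 25 h, and emc and da at 35 h, and ase, neur and phyl were never called. The lead of ac, sc and sca over sens depended on the setting. All 3 were called before sens in 6 of 23 alternatives, and in 16 they were first called at the same time as sens. In the 23 alternatives emc was first called at 35 h in 14 and da in 15, and otherwise earlier or later. By the midpoint of the log2 rise between 6 h and the highest mean, interpolated between times, sc reached it at 18.5 h, ac at 18.7 h, sca at 19.8 h and sens at 19.9 h. With each library left out in turn these midpoints ranged over 17.9 to 19.2 h for sc, 16.4 to 20.0 h for ac, 19.1 to 20.4 h for sca and 19.6 to 20.1 h for sens, so ac overlapped each of the others, and sca overlapped sc and sens. da followed at 25.3 h (12.5 to 26.2 h) and emc at 28.0 h (14.8 to 30.0 h), both with ranges wide enough to cover the first 4 genes.

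The midpoints hide a difference in shape. At 15 h sens had completed 9.68% of its log2 rise, while sca had completed 28.7%, sc 35.7% and ac 37.1%. At 25 h sens stood at 92.6%, above sc with 76.1%, sca with 72.9% and ac with 72.0%, and at 35 h it was back at 56.9% while ac had its highest mean. The midpoint of phyl, 20.2 h, ranged over 14.7 to 40.2 h and that of ase, 40.7 h, over 38.0 to 43.3 h, and both rest on few reads. These times are descriptions, and no test was made between them.

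**Figure D4:**
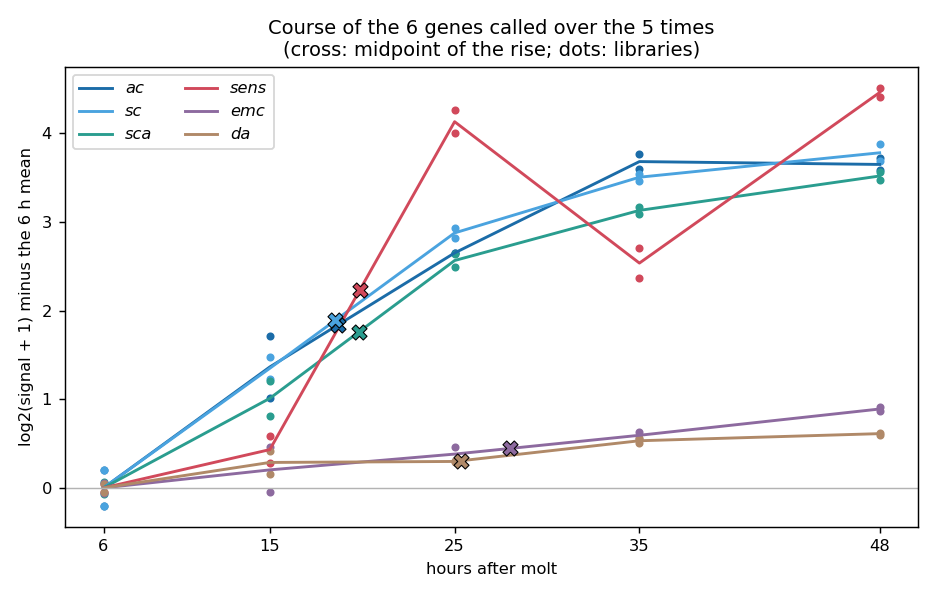
Difference in log2(signal + 1) from the 6 h mean against hours after the molt for the 6 genes called over the 5 times; dots are libraries, lines join means and crosses mark the midpoint of each rise. The crosses of sc, ac, sca and sens lie between 18.5 h and 19.9 h, and the line of sens is the lowest of these 4 at 15 h and the highest at 25 h.

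Per kb of exon, the order of the members changed between 6 h and 48 h. At 6 h emc (2954) was first and da (663) second, followed by neur (93.1), sca (48.0), ac (44.1) and sc (38.2). sca overlapped ac and ac overlapped sc in their libraries. sens (3.38), ase (3.35), phyl (3.03) and l(1)sc (2.00) followed, and each overlapped the next.

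At 48 h emc (5470) and da (1013) were still first, and ac (561), sca (552) and sc (529), which overlapped in turn, had moved above neur (110). sens followed with 83.0, phyl with 15.1, ase with 11.3 and l(1)sc with 4.03, and none of these overlapped its neighbour. neur was above ac, sc and sca in both libraries at 6 h, overlapped all 3 at 15 h, and was below them from 25 h on. These values are signal per kb of merged exons in the annotation and compare levels between genes only roughly.

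Over the 10 libraries, ac, sc and sca varied together, with Pearson r of log2(signal + 1) of 0.985 for ac with sc, 0.988 for ac with sca and 0.992 for sc with sca. sens had r of 0.837, 0.882 and 0.901 with ac, sc and sca. These are descriptions, since the libraries share 5 time means and differ in depth. Among 8446 genes with a mean signal of at least 50, the members aside, the course most like that of sc was that of amd (r = 0.991), rut (r = 0.991) and ss (r = 0.990). amd and rut encode a dopa decarboxylase-like enzyme and an adenylyl cyclase, and ss a bHLH-PAS transcription factor. The most like sens were Tl (r = 0.968), the Toll receptor gene, CG8111 (r = 0.954) and Pgant7 (r = 0.951). Tl had a signal of 1687 and 1509 at 6 h, 1690 and 1845 at 15 h, 2875 and 2453 at 25 h, 2219 and 2108 at 35 h, then 2881 and 2828 at 48 h, a lower point at 35 h of smaller size.

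Of 15 genes listed as regulators of ac and sc, 13 were tested at 48 h against 6 h. Of these, 9 were higher and 0 lower, beside 22.3% and 26.8% of all genes. Their median log2 difference was 0.64, beside -0.10 for all genes. ara and caup, the Iroquois homeobox genes that activate ac and sc in the lateral notum and the veins, rose by 2.68 and 1.96. ara had a signal of 3158 and 3180 at 48 h, against 488.1 and 501.8 at 6 h. mirr, the other Iroquois gene, rose by 1.70, and pnr, a GATA factor of the medial notum, by 1.19 (adjusted p of the 4 between 0.00022 and 0.00725). h, the repressor of ac, had 1604 and 1618 at 48 h, against 1549 and 1879 at 6 h, and did not pass the test (log2 -0.08, adjusted p = 0.812). At 35 h against 25 h, 0 of the 13 passed, beside 0.851% higher and 3.09% lower among all genes.

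At 48 h against 6 h, 10 of 12 core genes of the Notch pathway rose and 0 fell. Among all genes 22.3% were higher and 26.8% lower. The median of the 12 core genes was 0.89. The largest changes were those of mam, a co-activator (1.46), fng, a glycosyltransferase that modifies Notch (1.24), kuz, a protease that cleaves Notch (1.23), and N itself (1.18). Of the E(spl) and Bearded complexes, the target genes of Notch in proneural clusters, 11 of 15 tested rose and 1 fell. This was again beside 22.3% and 26.8% of all genes, and the median of the 15 was 1.62. E(spl)m6-BFM rose by 3.80, E(spl)malpha-BFM by 3.36, Ocho by 2.55 and E(spl)m7-HLH by 2.53, and E(spl)mgamma-HLH fell by 1.50 (adjusted p = 0.0147). E(spl)m6-BFM had a signal of 348.3 and 411.1 at 48 h, against 25.7 and 26.7 at 6 h. None of the 12 and 15 genes of these lists was called at 35 h against 25 h, beside 0.851% higher and 3.09% lower among all genes. The medians of the 12 and 15 genes in this step were 0.32 and 0.78. Over the span from 6 h to 48 h, 13 of 15 wing disc markers rose. Most gut enzyme, haemocyte, differentiated muscle and neuron markers fell. The fat body and tracheal lists went both ways, and 2 of 3 markers of adult muscle precursors rose. The part of these tissues in the changes of the Notch genes was not tested.

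Of 18 genes of precursors and their lineage that were tested, 5 rose and 6 fell at 48 h against 6 h (27.8% and 33.3%), beside 22.3% higher and 26.8% lower among all genes, with a median of -0.17 beside -0.10. Poxn, the Pax gene of multiply innervated sense organs, had a signal of 9.4 and 14.7 at 6 h, 86.0 and 113.9 at 15 h, 224.6 and 203.8 at 25 h, 287.2 and 263.1 at 35 h, then 331.6 and 319.9 at 48 h. It rose by 4.68 over the instar (adjusted p = 0.000201) and, like ac, sc and sca, was called at 15 h against 6 h (2.97, adjusted p = 0.0194). sina, ebi and ttk encode a ubiquitin ligase, its partner and its Tramtrack substrate, and were singled out after their values were seen. They rose by 0.72, 0.36 and 1.41, while their adaptor gene phyl was not called (limma adjusted p = 0.056). lz, ham and sens-2 fell by 4.22, 3.98 and 3.84. lz, a Runx gene, is also a gene of crystal cells, a kind of haemocyte, and had a signal of 1.3 and 6.0 at 48 h, against 58.2 and 94.7 at 6 h. PPO1, a crystal cell enzyme gene, had 981.4 and 2562 at 48 h, against 15535 and 23130 at 6 h, and the part of haemocytes in the fall of lz was not tested.

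sv, the Pax2 gene of bristle shaft cells, was singled out after its values were seen because its low point was also at 35 h. Its signal was 12.6 and 9.3 at 25 h, 1.3 and 0 at 35 h, then 15.4 and 11.9 at 48 h, from 9 and 9, 1 and 0, and 23 and 20 reads. It was called lower at 35 h against 25 h (adjusted p = 0.0408) and not higher at 48 h against 35 h (adjusted p = 0.0645). The call at 35 h held in 9 of 22 alternatives. Of the other bHLH genes of sense organs and neural cells, 2 were tested; tap fell to 0.7 and 0.6 at 48 h, against 13.7 and 13.3 at 6 h, and ato, with 8.7 and 18.5 at 48 h, against 5.1 and 5.3 at 6 h, did not pass (adjusted p = 0.189).

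Among the neural marker lists at 48 h against 6 h, 0 of 9 neuron markers rose and 6 fell, 0 of 6 glia markers rose and 2 fell, and of 7 neuroblast markers tested 2 rose and 1 fell, beside 22.3% higher and 26.8% lower among all genes. The median log2 difference was -3.46 for the neuron list and -0.76 for the glia list. Of the neuron markers Rdl, a GABA receptor gene, was at 0 in both 48 h libraries, and Syn, para and nSyb fell, with log2 differences of -5.12, -4.14 and -3.86. The glia genes repo and moody fell too, with -1.89 and -1.64. pros, a homeobox gene of neural progeny, fell by 2.04, and klu and nab, which wing disc cells also express, rose by 1.75 and 1.01. dpn, the neuroblast bHLH gene, had 310.2 and 319.9 at 48 h, against 291.1 and 281.6 at 6 h, and did not pass the test (log2 0.14, adjusted p = 0.637).

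The marker lists of other cell types moved over the same span, in which 6 of 9 members rose. Among all genes 22.3% were higher and 26.8% lower. All 6 gut enzyme genes tested fell (median -7.69), with log2 differences of -10.31, -9.94, -8.75 and -6.64 for epsilonTry, Jon99Fii, betaTry and Amy-p. Of 7 haemocyte markers 0 rose and 6 fell (median -2.37), among them PPO1, PPO2, Hml and srp. Both muscle genes tested, Act57B and Tm2, fell, with log2 differences of -5.28 and -5.13. Act57B had 4609 and 3316 at 48 h, against 128385 and 180117 at 6 h. Of 7 fat body markers 3 rose and 3 fell, with Fbp1 higher by 6.04 and Apoltp, apolpp and FASN1 lower. Of 7 tracheal markers 2 rose, dysf and vvl, and 2 fell, verm and serp. Of 3 markers of adult muscle precursors tested 2 rose, hbs by 2.75 and Ama by 1.11. The wing disc markers had a median of 1.24, and Doc2, pdm2, eyg and en rose by 4.41, 2.43, 2.25 and 1.79. The part of a changing tissue make-up in the rise of the members was not tested.

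The 4 genes of the achaete-scute complex lie on X in the order ac, sc, l(1)sc and ase on the plus strand, all within the span of CG32816 on the minus strand (X, 316576 to 470726) and with 0 shared exon bases. Coordinates are those of the BDGP6 annotation, the build named in the submitters' processing notes. CG32816 had a signal of 57.5 and 32.2 at 48 h, against 409.3 and 487.1 at 6 h, a fall of 3.35 on the log2 scale (adjusted p = 0.011), opposite in sign to ac and sc. sc and l(1)sc are 12223 bases apart and next to each other, and at 48 h had 2424 and 14 reads over the 2 libraries. sca and da share 394 and 362 exon bases with antisense RNAs, which bears on them in the same way as on neur.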

How the data were processed

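Total RNA was depleted of ribosomal RNA and made into stranded libraries, per the labels' protocols, although the labels' molecule field says polyA RNA. Per the submitters' processing notes, STAR 2.7.10a and featureCounts were used, with dm6 and BDGP6 as builds, and whether counting used strand is not given in the sources used here. The deposited table holds 1 signal value per gene and library, normalised by the authors. Every value was a whole multiple of 1 step per library (100% whole within 0.001 reads), so the table holds read counts divided by a factor per library, and whole reads were recovered from it. There were 0 other columns of per-sample values. Row names gave the symbols, and 13000 of 13041 genes matched the BDGP6 annotation by identifier.

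The 10453 genes that reached a signal of 10 in 2 or more libraries were tested on log2(signal + 1) with limma 3.58.1 in R 4.3.3, with 1 mean per time, an intensity trend and all 10 libraries. This scale understates the change of low genes. Tests were two-sided, p-values were adjusted by Benjamini-Hochberg over all genes tested in each of 7 comparisons, and a call is an adjusted p below 0.05. The count tests on recovered reads, edgeR 4.0.16 and DESeq2 1.42.0, served as alternatives; at 48 h against 6 h edgeR called 4970 genes, DESeq2 5776 and limma 5130. The pipeline was tested on simulated data.

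All members are described. From each other list the genes past the threshold at 48 h against 6 h with the largest changes were named, up to 4, with 3 genes most like sc and 3 most like sens, and annotated neighbours; sage, fkh, CrebA, Syt1, h, dpn, ato, sina, ebi, ttk, E(spl)mgamma-HLH and sv were added after their values were seen. The members and lists were chosen with earlier results of these data known. Listed genes with no row are not analysed here. Poisson intervals cover counting error only.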

Additional observations from a re-analysis of the deposited data

How the results depend on the processing

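In 23 alternatives (other pseudocounts, filters, scalings, weights, tools and sets of libraries) no member's log2 change that was called reversed its sign. The count of members called kept within 1.5 times of its value at 25 h, 35 h and 48 h against 6 h and over the 5 times; with each library left out these ranged over 4 to 6, 4 to 6, 6 to 7 and 4 to 6. Of 65 other genes named or listed beside them and called at 48 h against 6 h, 44 were called the same way in every setting and all 65 kept their sign.

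At 15 h against 6 h the count of 3 became 0 with quantile normalization, a common median, TMM, library weights, only the times compared, the 25 h libraries left out, or edgeR, and ranged over 0 to 5 with each library left out. At 25 h against 15 h the count of 2 became 0 with quantile normalization, library weights or only the times compared, 1 with a common median, TMM, a replicate block or edgeR, and 4 with DESeq2 (0 to 5 with each library left out). At 35 h against 25 h the count of 1 became 0 with no filter, quantile normalization, a common median or a replicate block, 4 with DESeq2 or only the times compared, and 5 with library weights or the 15 h libraries left out (0 to 5). At 48 h against 35 h the count of 0 became 1 with a pseudocount of 4 or DESeq2, 2 with the 15 h libraries left out, 3 with library weights and 4 with only the times compared (0 to 2). Members lower than the mean of the neighbouring times numbered 1 at 15 h with DESeq2. At 35 h they numbered 1 with library weights, only the times compared, the 15 h libraries left out or DESeq2. At 25 h the count was 0 throughout. The cause was not tested.

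Over all genes, calls at 35 h against 25 h numbered 2488 with the 15 h libraries left out and 412 with them, and at 15 h against 6 h 0 with edgeR, 1381 with DESeq2 and 441 with limma. The median log2 change of all genes at 48 h against 6 h was -0.10, and 0.33 with quantile normalization and 0.23 with a common median; higher genes were 66.5% and 58.8% of calls there and 45.5% with the authors' scaling. The deviations of libraries sharing a replicate letter had r between -0.06 and 0.16 for the pairs of times. Such values cannot show whether the letters mark a shared batch, which the labels do not state. Apart from the counts above, the replicate block changed no count of members called by over 1.5 times. Under the block ac was not called at 15 h against 6 h (adjusted p = 0.0661), nor sens at 35 h against 25 h (adjusted p = 0.0596). Depth limits l(1)sc, ase and phyl, whose libraries hold 0 to 52 reads.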
